A study of Danio rerio with 21 samples.

Results

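A set of 10 genes that act at the entrance of the endoplasmic reticulum (ER) were followed in livers of zebrafish larvae. The genes were *sec61b* and *sec61g* of the Sec61 channel, its partner *sec63*, *ssr1*, *ssr2*, *ssr3* and *ssr4* of the translocon-associated protein (TRAP) complex, and *spcs1*, *spcs2* and *spcs3* of the signal peptidase complex. The 10 members were found by symbol among 32520 Ensembl gene identifiers, and in a reference gene order each shared 11 to 22 of the genes around it. All 10 passed the filter on low counts.

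RNA-seq counts were analysed for livers dissected at 7 days post fertilization (dpf), in 7 genotypes with 3 libraries each, on the AB background. Livers were pulled apart into cells with trypsin and sequenced with a low-input kit. The study asked which branches of the unfolded protein response shape the liver disease of larvae with a defect in COPII, the coat that buds vesicles from the ER. The 5 genotypes that combine mutations were *xbp1-/-;sec31anju221*, *atf6-/-;sec31anju221*, *atf4a-/-;atf4b-/-;sec31anju221*, *srebf1-/-;sec31anju221* and *srebf2-/-;sec31anju221*, all from stable lines with CRISPR deletions. The other genotypes were *sec31anju221* and wild type (WT). The *sec31anju221* allele, carried by all libraries other than WT, is a gene-trap insertion in an intron of *sec31a* and is described by the study as hypomorphic. Below, *xbp1-/-;sec31anju221* larvae are called *xbp1* double mutants, and likewise for *atf6*, *srebf1* and *srebf2*.

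A nascent secretory protein is led to the ER by the signal recognition particle (SRP) and enters through the Sec61 channel, built of alpha, beta and gamma subunits. Sec63, with Sec62, serves proteins that cross after translation and brings the chaperone BiP to the pore. The TRAP complex sits beside the channel and helps weak signal sequences to open it, and signal peptidase cuts the signal sequence off on the lumenal side. The liver leans on this machinery because hepatocytes secrete most plasma proteins, and in mammals XBP1 and ATF6 are known to drive many of its genes when unfolded proteins build up in the ER.

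Before any comparison, the libraries of each genotype were compared with each other. Their counts varied by 1.76 to 1.88 times what independent counting would give, and by 1.96 to 2.21 times for genes of 2000 to 10000 counts. A biological spread of 10% would have given 36.5 to 38.9 times for those genes. The 3 libraries of a genotype were therefore counted as 1 sample, no p-value is given, and ranges over libraries and the 95% intervals cover counting error only. A gene was called higher or lower at a difference of at least 2-fold between mean levels.

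The disrupted genes were checked next. Levels are given as CPM, the counts scaled to a common library size with the trimmed mean of M-values (TMM). *sec31a* was at 2.03 to 4.93 CPM in the 6 mutant genotypes, against 19.5 CPM in WT. The size of this difference depended on scaling. With TMM factors set only by genes averaging at least 10 CPM, *sec31a* was at 12.6 CPM in WT. It was then at 5.75 CPM in *xbp1* double mutants, 6.28 CPM in *atf6* double mutants and 5.24 CPM in the libraries labelled *atf4a-/-;atf4b-/-;sec31anju221*. In the other mutant genotypes it was at 1.32 to 2.98 CPM. *xbp1* was at 0.385 CPM in *xbp1* double mutants, against 104 CPM in *sec31anju221* larvae. The *xbp1* transcript was also at 32.9 CPM in *atf6* double mutants and 32.8 CPM in the libraries labelled *atf4a-/-;atf4b-/-;sec31anju221*. These 2 values depended on scaling. When only genes averaging at least 10 CPM set the TMM factors, they were 65.5 and 55.7 CPM, against 72.4 CPM in *sec31anju221* larvae. *atf6* was at 4.41 CPM in *atf6* double mutants, against 327 CPM in *sec31anju221* larvae. Its mean in the other genotypes ran from 38.2 CPM in *xbp1* double mutants to 844 CPM in *srebf1* double mutants. With the factors from abundant genes *atf6* was at 63.5 CPM in *xbp1* double mutants, against 228 CPM in *sec31anju221* larvae. *srebf1* was near the low end of detection throughout, at 0.455 CPM in *srebf1* double mutants, against 1.57 CPM in *sec31anju221* larvae. *srebf2* was at 0.997 CPM in *srebf2* double mutants, against 4.45 CPM in *sec31anju221* larvae. Its highest mean, 9.31 CPM, was in the libraries labelled *atf4a-/-;atf4b-/-;sec31anju221*. *srebf1* was as low in *srebf2* double mutants, at 0.405 CPM, so its level does not single out the *srebf1* line. In the libraries labelled *atf4a-/-;atf4b-/-;sec31anju221* neither *atf4* gene was lower. *atf4a* was at 12.6 CPM there, against 6.40 CPM in *sec31anju221* larvae, and *atf4b* at 132 CPM, against 88.3 CPM. The lowest *atf4a* means, 0.852 and 1.26 CPM, were in *atf6* and *xbp1* double mutants. These libraries are therefore named by their label throughout.

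Library make-up differed between genotypes. *xbp1* and *atf6* double mutants and the libraries labelled *atf4a-/-;atf4b-/-;sec31anju221* had 9608400 to 11666806 counts each and 21674 to 23458 genes at 1 CPM of the library total or more. The other genotypes had 18918025 to 23095746 counts and 11627 to 15433 such genes. The 26 matched genes for secreted hepatocyte proteins took 15.2% to 24.1% of the counts in the mutant genotypes on average, against 36.0% in WT. Most of this was *apoa2*, with 28.0% to 28.3% of the counts in WT libraries and 8.54% to 15.7% in mutant libraries. Each of the 26 genes had counts in every genotype. At 1 TMM-scaled CPM or more there were 24 in *atf6* double mutants, and 25 in *xbp1* and *srebf1* double mutants and the labelled libraries. The other genotypes, WT among them, had 26. The 14 other matched hepatocyte genes took 1.04% in WT. They took 0.616% in *sec31anju221* larvae, 0.944% in *xbp1* and 0.939% in *srebf1* double mutants. Their share was 1.33% in *srebf2* double mutants, 1.56% in *atf6* double mutants and 1.88% in the labelled libraries. The 17 matched exocrine pancreas genes took 0.203% to 0.207% of the counts in *atf6* double mutants, 0.0565% to 0.0574% in *srebf1* double mutants, 0.0101% to 0.0103% in *sec31anju221* larvae and 0.0995% to 0.101% in WT. They took 0.00673% to 0.00681% in *xbp1* double mutants, 0.00326% to 0.00341% in *srebf2* double mutants and 0.0106% to 0.0112% in the labelled libraries. Of these genes, *ptf1a* alone was at 0, in the libraries labelled *atf4a-/-;atf4b-/-;sec31anju221*. The 7 intestine genes took a mean of 0.249% in *sec31anju221* larvae and 0.0812% in WT. They took 0.120% in *xbp1* double mutants, 0.00904% in *atf6* double mutants and 0.0141% in the labelled libraries. In *srebf1* and *srebf2* double mutants they took 0.206% and 0.0325%. The 14 leukocyte genes took a mean of 0.0849% in *srebf2* double mutants, against 0.0117% in *sec31anju221* larvae, and 1 of 8 identifiers of *mfap4* carried most of this, with 1449 CPM against 117 CPM. The leukocyte gene *coro1a* was at 0.530 CPM in *srebf2* double mutants, against 2.58 CPM, and *ptprc* at 0.935 CPM, against 0.957 CPM. The part of depth and of other cells in the results was not tested. In whole livers, fewer cells of a type and less RNA per cell cannot be told apart.

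The members were higher in *sec31anju221* livers than in WT. Of the 10, 7 were called higher and 0 lower, and the median log2 difference was 1.31. Over all 30685 genes tested, 15.0% were at least 2-fold higher and 10.8% at least 2-fold lower, with a median of 0.15. Among genes of at least 10 CPM, 17.3% were higher and the median was −0.12. The count of members depended on scaling. It was 6 with DESeq2 size factors, where *sec63* was at 0.93, and 8 with library totals without *apoa2*, which added *spcs1* (1.22). The share of all genes was not computed under these 2 scalings. With library totals the count was 9, which added *spcs1* (1.52) and *ssr4* (1.24), while 33.9% of the genes of at least 10 CPM were higher. With TMM the count differed by role. All 3 translocon genes were called, 3 of 4 TRAP genes and 1 of 3 signal peptidase genes, with medians of 1.93, 1.37 and 0.87. Each role holds only 3 or 4 members, and the calls of *sec63*, *ssr4* and *spcs1* changed with scaling.

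*sec61b*, the beta subunit of the channel, led the group. It had 1397, 1401 and 1416 CPM in *sec31anju221* libraries, against 202, 199 and 205 CPM in WT libraries. The libraries lay far apart, by 6.95-fold (log2 2.80, 95% interval 2.75 to 2.85), and only 264 of the 30685 genes were further up. *sec61g*, the small gamma subunit that clamps the channel together, had 539, 540 and 533 CPM in *sec31anju221* libraries, against 136, 146 and 141 CPM in WT libraries, a difference of 3.81-fold (log2 1.93, 1.87 to 2.0). *sec63* stood at the threshold, at 159 CPM in *sec31anju221* larvae and 79.2 CPM in WT (log2 1.0, 0.91 to 1.1), and was not called without *sec31anju221* library 1, WT library 1 or WT library 3.

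Among the TRAP genes, *ssr3*, the gamma subunit, had 1159, 1139 and 1167 CPM in *sec31anju221* libraries, against 378, 366 and 352 CPM in WT libraries (log2 1.66, 1.62 to 1.70). *ssr2*, the beta subunit, averaged 396 CPM in *sec31anju221* larvae and 187 CPM in WT (log2 1.08, 1.02 to 1.15). Both were above WT in every library. *ssr4*, the delta subunit, reached 1349 CPM in *sec31anju221* larvae and 901 CPM in WT, a 1.5-fold difference that was not called with TMM. *ssr1*, the alpha subunit, was barely counted. It had 42, 23 and 28 counts in *sec31anju221* libraries, against 3, 1 and 6 counts in WT libraries. Its log2 difference of 2.38 had a wide interval, 1.36 to 4.49, and gives no precise fold.

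The signal peptidase genes did not move as one. *spcs3* had 101, 122 and 118 CPM in *sec31anju221* libraries, against 40.3, 37.4 and 40.1 CPM in WT libraries (log2 1.53, 1.41 to 1.67). *spcs1* averaged 47.9 CPM in *sec31anju221* larvae and 26.2 CPM in WT (log2 0.87, 0.71 to 1.04) and was not called with TMM. *spcs2* had 426, 425 and 434 CPM in *sec31anju221* libraries, against 528, 545 and 571 CPM in WT libraries. It was the one member with a lower mean (log2 −0.36, −0.40 to −0.31), and scaled by library totals its sign was the opposite (0.30).

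**Figure D1:**
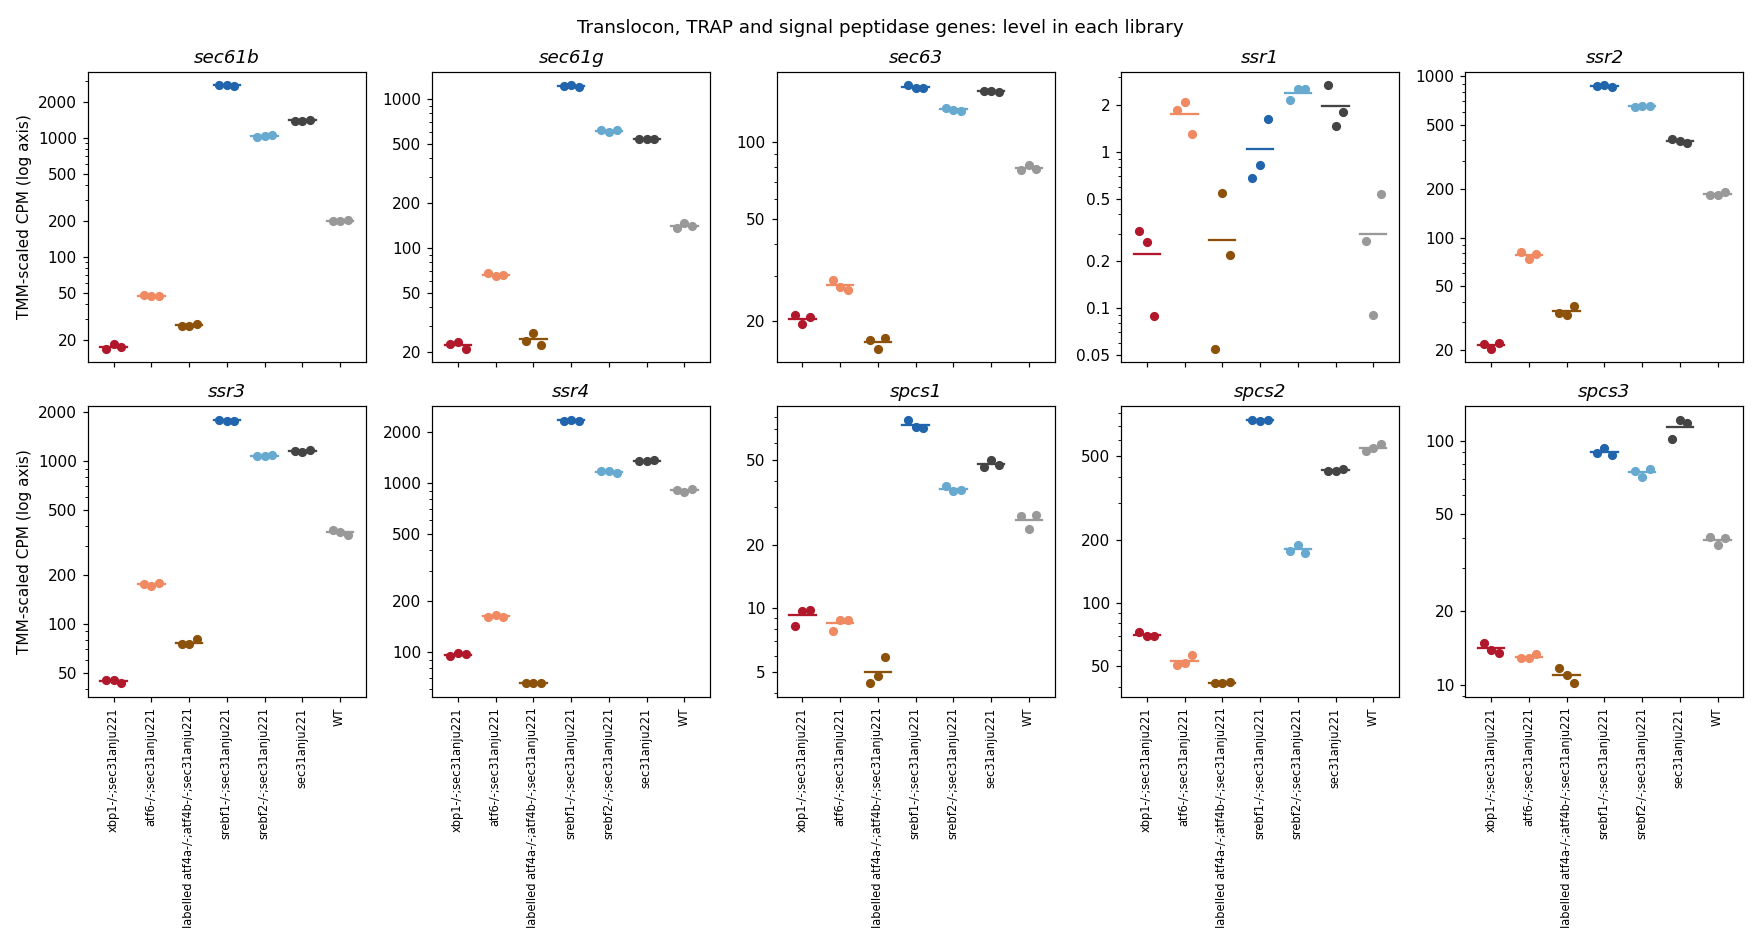
Level of each of the 10 genes in each library, in TMM-scaled CPM on a log axis with its own range per gene. Points are libraries and bars their mean, and libraries of a genotype are 1 sample. The *sec61b* points lie at 1397 to 1416 CPM in *sec31anju221* and at 199 to 205 CPM in WT, and *spcs2* is the gene whose *sec31anju221* points lie below WT.

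The 5 genotypes with a further mutation were each set against *sec31anju221* larvae, to ask whether the members' level depended on a second factor. These 5 comparisons share the *sec31anju221* libraries, so each is given by its own values.

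In *xbp1* double mutants all 10 members were called lower, with a median log2 difference of −3.40 and values between −6.31 and −2.35. Of all genes, 16.8% were at least 2-fold lower and 9.70% at least 2-fold higher. The background was much higher among genes of at least 10 CPM, of which 62.7% were lower, with a median of −1.25. The members' median lay 2.15 log2 units below that median.

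*sec61b* again differed most. It had 16.8, 18.4 and 17.6 CPM in *xbp1* double mutant libraries, against 1397, 1401 and 1416 CPM in *sec31anju221* libraries, 79.4-fold lower (log2 −6.31, −6.44 to −6.20). Of the 30685 genes, 5 were further down. *sec61g* was at 22.3 CPM in *xbp1* double mutants and 537 CPM in *sec31anju221* larvae (log2 −4.58), and *sec63* at 20.4 CPM and 159 CPM in the same order (log2 −2.96).

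*ssr3* had 44.8, 45.2 and 43.0 CPM in *xbp1* double mutant libraries, against 1159, 1139 and 1167 CPM in *sec31anju221* libraries (log2 −4.70, −4.78 to −4.63). *ssr2* and *ssr4* followed at log2 −4.19 and −3.81, and *ssr1* had 7, 6 and 2 counts (log2 −2.69, −4.49 to −2.03). The signal peptidase genes *spcs1* and *spcs2* differed least of the members, at log2 −2.35 and −2.60. *spcs3* was at −3.00, past *ssr1* and *sec63*. The role medians were −4.58 for the translocon, −4.00 for TRAP and −2.60 for signal peptidase.

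In *atf6* double mutants 9 members were called lower and 0 higher, with a median of −2.87. Of all genes 19.7% were lower and 14.0% higher. Among genes of at least 10 CPM 69.4% were lower, with a median of −1.56, and the members' median lay 1.31 log2 units below it. *sec61b* had 47.6, 47.2 and 47.1 CPM in *atf6* double mutant libraries, against 1397, 1401 and 1416 CPM in *sec31anju221* libraries, 29.6-fold lower (log2 −4.89, −4.97 to −4.81). The other called members lay closer together, between −2.34 for *ssr2* and −3.11 for *spcs3*. *ssr1* had 37, 42 and 26 counts in *atf6* double mutant libraries, against 42, 23 and 28 counts in *sec31anju221* libraries. It was not called (log2 −0.17, −0.79 to 0.45), and its sign depended on the scaling. With TMM factors set by abundant genes 7 members were called lower, *ssr2* (−0.83) and *spcs1* (−0.98) no longer among them, and *ssr1* was called higher (1.28). With library totals 8 were lower, without *ssr2* (−0.89), and *ssr1* was higher (1.22). The share of all genes called with library totals was not computed for this comparison.

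In the libraries labelled *atf4a-/-;atf4b-/-;sec31anju221* all 10 members were called lower, with a median of −3.43. Of all genes 18.5% were lower and 13.2% higher. Among genes of at least 10 CPM 59.4% were lower, with a median of −1.29, and the members' median lay 2.14 log2 units below it. *sec61b* had 26.2, 26.4 and 27.5 CPM in these libraries, against 1397, 1401 and 1416 CPM in *sec31anju221* libraries, 52.4-fold lower (log2 −5.71, −5.83 to −5.61). *ssr4* had 65.2, 65.9 and 65.9 CPM in these libraries, against 1336, 1350 and 1362 CPM in *sec31anju221* libraries (log2 −4.36, −4.43 to −4.29). The other members lay between −4.46 for *sec61g* and −2.48 for *ssr1*. All 3 signal peptidase genes differed by nearly one amount here, with log2 −3.22 for *spcs1*, −3.36 for *spcs2* and −3.36 for *spcs3*.

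In *srebf1* double mutants 2 members were called higher, *sec61g* and *ssr2*, and 0 lower, with a median of 0.71. Of all genes 11.9% were higher and 15.6% lower, and among genes of at least 10 CPM 16.9% were higher, with a median of 0.05. *sec61g* had 1221, 1234 and 1199 CPM in *srebf1* double mutant libraries, against 539, 540 and 533 CPM in *sec31anju221* libraries (log2 1.18, 1.15 to 1.21). *ssr2* had 865, 882 and 862 CPM in *srebf1* double mutant libraries, against 410, 394 and 384 CPM in *sec31anju221* libraries (log2 1.13, 1.1 to 1.17). *sec61b*, at 2765 CPM in *srebf1* double mutants and 1404 CPM in *sec31anju221* larvae, lay just inside 2-fold (log2 0.98) and was called with DESeq2 size factors (1.03). Of the rest, *ssr3*, *ssr4*, *spcs1* and *spcs2* had log2 values between 0.61 and 0.80, *sec63* 0.05, *spcs3* −0.34 and *ssr1* −0.86. Without *srebf1* double mutant library 3, or without *sec31anju221* library 2, *ssr1* was also past 2-fold, on the lower side, and the count was 3. For 8 of the 10 members the highest level of all 7 genotypes was in *srebf1* double mutants. That count was 7 with TMM factors set by abundant genes and with library totals, and the share of all genes highest there was not computed.

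In *srebf2* double mutants the members stayed near their *sec31anju221* level with TMM, with 1 called lower, 0 higher and a median of −0.23. Of all genes 27.1% were lower and 12.4% higher, and among genes of at least 10 CPM 18.1% were lower, with a median of 0.19. The called member was *spcs2*. It had 176, 190 and 174 CPM in *srebf2* double mutant libraries, against 426, 425 and 434 CPM in *sec31anju221* libraries (log2 −1.25, −1.31 to −1.19). At the other end *ssr2* was at 652 CPM in *srebf2* double mutants and 396 CPM in *sec31anju221* larvae (log2 0.72, not called), and the remaining 8 lay between −0.62 for *spcs3* and 0.27 for *ssr1*. With library totals the median was −0.66, and *spcs3* was called lower too (−1.05). The mean was below *sec31anju221* larvae for 7 members with TMM and for 9 with library totals. The share of all genes was not computed for these counts.

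**Figure D2:**
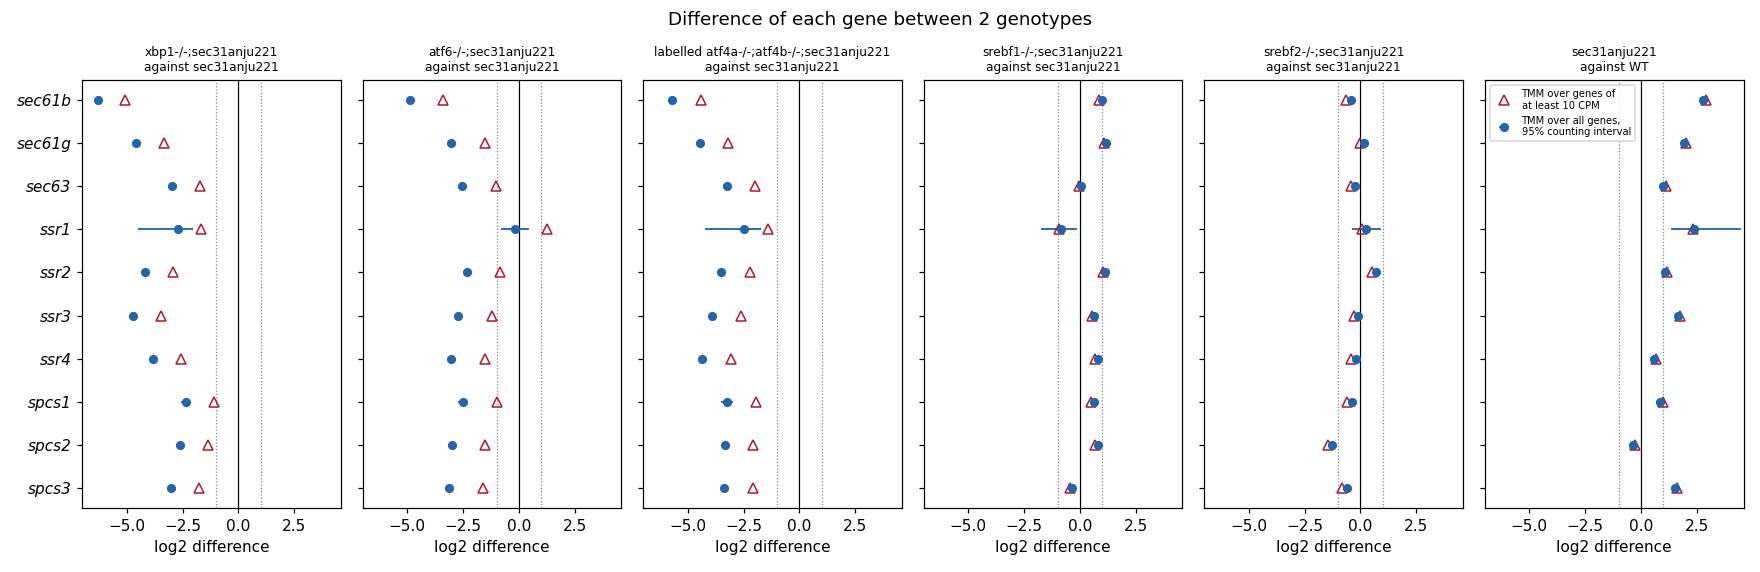
Log2 difference of each gene in 6 comparisons. Filled points with bars give the TMM value and its 95% counting interval, open triangles the value with TMM factors from genes of at least 10 CPM, and dotted lines 2-fold. The points of *xbp1* double mutants run down to −6.31 for *sec61b*, and the triangles of that comparison, of *atf6* double mutants and of the libraries labelled *atf4a-/-;atf4b-/-;sec31anju221* lie to the right of the points.

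The size of the differences depended most on scaling in 3 of the genotypes. TMM over all genes gave *xbp1* and *atf6* double mutants and the libraries labelled *atf4a-/-;atf4b-/-;sec31anju221* a lower level for most abundant genes, and the median of all genes was 0.18, 0.21 and 0.19 log2 units. When abundant genes alone (10 CPM or more on average) set the TMM factors, that median was 1.23, 1.49 and 1.27. With these factors the share of genes of at least 10 CPM that were called lower was 13.7%, 20.8% and 24.7%. The members' medians were −2.16, −1.36 and −2.15, and 10, 7 and 10 members were called lower. With library totals 9 were lower in *xbp1* double mutants, without *spcs1* (−0.91), and the share of all genes lower with totals was not computed. With the factors from abundant genes *sec61b* was still at −5.06, −3.38 and −4.43. Scaling moves all genes of a library alike, so the distance of the members' median from the median of genes of at least 10 CPM is nearly free of it by construction. It was −2.15 for *xbp1* double mutants, −1.31 for *atf6* double mutants, −2.14 for the labelled libraries and 1.43 for *sec31anju221* against WT. For *srebf1* and *srebf2* double mutants it was 0.66 and −0.42.

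Whether the members were below WT depended on the scaling. With TMM over all genes the mean was below WT for 10 members in *xbp1* double mutants, 9 in *atf6* double mutants and 10 in the libraries labelled *atf4a-/-;atf4b-/-;sec31anju221*. With library totals these counts were 6, 2 and 9. The share of all genes below WT in these genotypes was not computed, so the counts do not set the members apart from other genes. In *atf6* double mutants *sec61g*, for example, was at 66.0 CPM, against 141 CPM in WT, with TMM, but had 135 to 140 CPM of the unscaled library total, against 65.3 to 70.5 CPM in WT. By contrast, all 10 members in *xbp1* double mutants and in the labelled libraries had a mean below *sec31anju221* under each of the 5 scalings, and in *atf6* double mutants 9 or 10 did, *ssr1* being the exception. The share of all genes with a lower mean was not computed here either. With TMM, 62.7% of genes of at least 10 CPM were at least 2-fold lower in *xbp1* double mutants. It was 59.4% in the labelled libraries and 69.4% in *atf6* double mutants.

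Shares of the 10-gene sum do not depend on scaling between libraries. The sum itself took 0.0660% of the library in *xbp1* double mutants, 0.131% in *atf6* double mutants, 0.0475% in the libraries labelled *atf4a-/-;atf4b-/-;sec31anju221*, 0.713% in *srebf1* double mutants, 0.280% in *srebf2* double mutants, 0.426% in *sec31anju221* larvae and 0.120% in WT. *sec61b* made up 5.55%, 7.47% and 8.81% of it in the first 3 of these genotypes. It made up 27.5% in *srebf1* double mutants, 20.8% in *srebf2* double mutants, 25.1% in *sec31anju221* larvae and 8.11% in WT. The genotypes thus fell into those with a *sec61b* share of 20.6% or more in each library and those at 8.90% or less.

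The share of *spcs2* ran differently. It was 22.3% in *xbp1* double mutants, 8.34% in *atf6* double mutants, 13.8% in the libraries labelled *atf4a-/-;atf4b-/-;sec31anju221*, 7.41% in *srebf1* double mutants, 3.62% in *srebf2* double mutants, 7.66% in *sec31anju221* larvae and 22.0% in WT. In *xbp1* double mutants and in WT *spcs2* therefore held a like share, although the sum differed. The share of *ssr3* was larger in *atf6* double mutants and in the labelled libraries, to 27.6% and 25.3%, against 20.7% in *sec31anju221* larvae and 14.7% in WT. *ssr4* held 21.7% to 30.4% in the 6 mutant genotypes, against 36.2% in WT. Counts were not divided by gene length, so shares are compared across genotypes and not between genes.

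**Figure D3:**
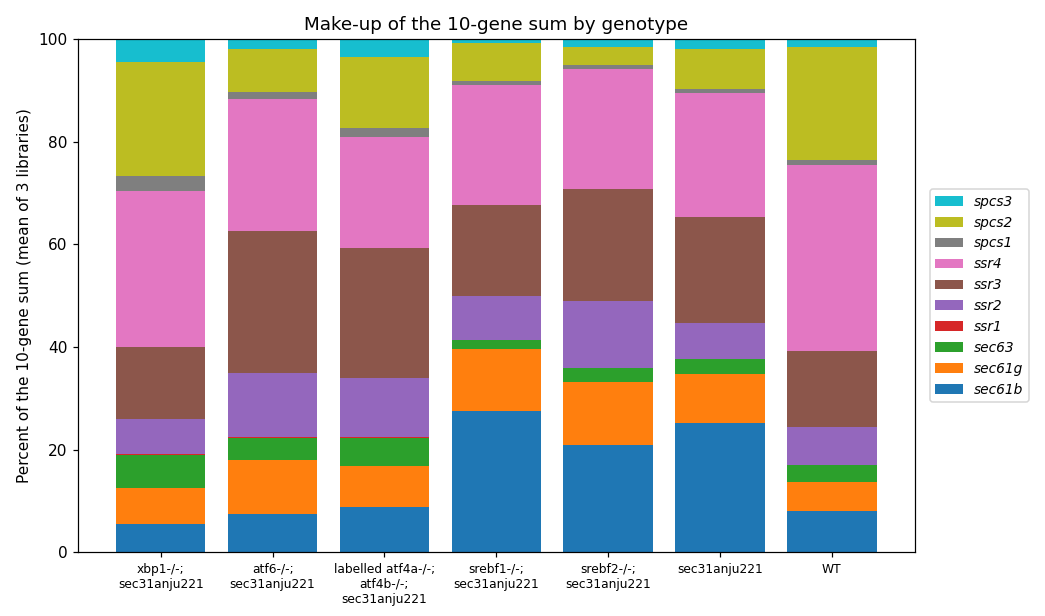
Share of each of the 10 genes in their summed CPM, in percent, as the mean of 3 libraries per genotype. *sec61b* takes 25.1% in *sec31anju221* and 8.11% in WT, and *spcs2* takes 22.3% in *xbp1* double mutants, 7.66% in *sec31anju221* and 22.0% in WT.

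The rest of the ER entry pathway was described from 7 lists with 49 matched genes. In *sec31anju221* larvae 19 of the 49 were called higher than in WT and 1 lower, where 17.3% of genes of at least 10 CPM were higher. With library totals 35 were higher, where 33.9% of those genes were. Against *sec31anju221* larvae, 42 were called lower in *xbp1* double mutants, 43 in *atf6* double mutants and 40 in the libraries labelled *atf4a-/-;atf4b-/-;sec31anju221*, with 0 higher in each. Of the genes of at least 10 CPM, 62.7%, 69.4% and 59.4% were lower in these comparisons. In *srebf1* double mutants 3 were higher and 1 lower, where 16.9% of genes of at least 10 CPM were higher. In *srebf2* double mutants 1 was higher and 11 lower, where 18.1% of those genes were lower. With TMM factors from genes of at least 10 CPM, 25 were lower in *xbp1* double mutants, 22 in *atf6* double mutants and 28 in the labelled libraries. In the same order 2, 4 and 4 were higher. Beside these, 13.7%, 20.8% and 24.7% of the genes of at least 10 CPM were called lower.

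The alpha subunit, which forms the pore itself, has 2 genes in the zebrafish. In the name table both carried the symbol sec61a1. They were told apart by their neighbours as *sec61a1a* (ENSDARG00000021669, with 20 genes around it shared with *sec61a1a* in the reference and 0 with *sec61a1b*) and *sec61a1b* (ENSDARG00000005675, with 13 and 0 the other way). How reads common to both were counted is not given in the sources used here, so the split between them is uncertain. Both were higher in *sec31anju221* larvae. *sec61a1a* had 6347, 6231 and 6249 CPM in *sec31anju221* libraries, against 786, 759 and 764 CPM in WT libraries (8.15-fold). *sec61a1b* had 1424, 1431 and 1439 CPM in *sec31anju221* libraries, against 151, 152 and 152 CPM in WT libraries (9.44-fold).

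The paralogs parted most in 2 of the genotypes with further mutations. *sec61a1b* was called lower in each of the 5, at 56.5 CPM in *xbp1* double mutants, 66.3 CPM in *atf6* double mutants, 60.2 CPM in the libraries labelled *atf4a-/-;atf4b-/-;sec31anju221*, 501 CPM in *srebf1* double mutants and 303 CPM in *srebf2* double mutants. *sec61a1a* was 32.2-fold lower in *xbp1* double mutants, at 195 CPM. It kept a level of 5648 CPM in *atf6* double mutants and 5237 CPM in the labelled libraries, against 6276 CPM in *sec31anju221* larvae (log2 −0.15 and −0.26, neither called), and these 2 values were singled out after they were seen. *sec61a1a* made up 98.8% to 98.9% of the pair's counts in each library of *atf6* double mutants and of the labelled libraries, against 81.3% to 81.7% in *sec31anju221* and 83.3% to 83.9% in WT, and that share does not depend on scaling. Its mean was 77.5% in *xbp1* double mutants, 90.2% in *srebf1* double mutants and 93.8% in *srebf2* double mutants. With TMM factors from genes of at least 10 CPM *sec61a1a* was higher than in *sec31anju221* larvae in both (log2 1.36 and 1.02). The *sec61b* and *sec61g* genes, whose products join the alpha subunit in the channel, were called lower in both.

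**Figure D4:**
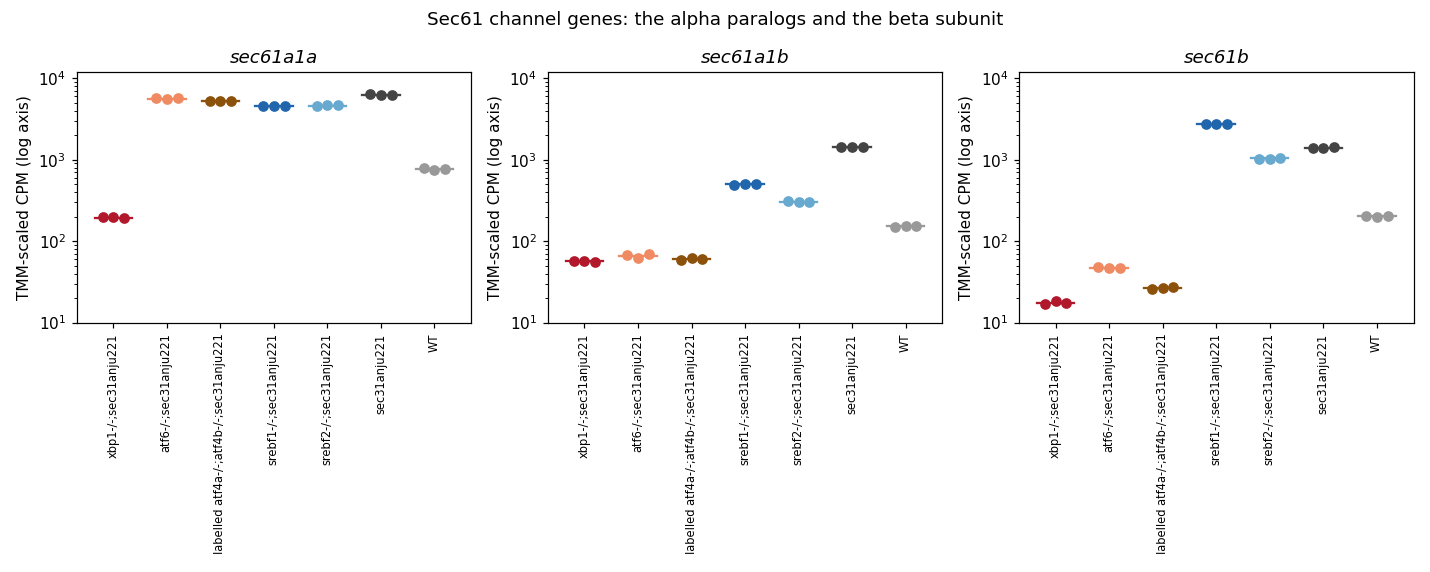
Level of the alpha paralogs *sec61a1a* and *sec61a1b* and of the beta subunit *sec61b* in each library, in TMM-scaled CPM on one log axis. Points are libraries and bars their mean. *sec61a1a* stands at 5648 CPM in *atf6* double mutants and 5237 CPM in the libraries labelled *atf4a-/-;atf4b-/-;sec31anju221*, where *sec61b* stands at 47.3 and 26.7 CPM.

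Other genes at the channel were described in the same way. *tram1*, which helps chains into the membrane, was at 1315 CPM in *sec31anju221* larvae and 195 CPM in WT (6.74-fold). It was at 67.8 CPM in the libraries labelled *atf4a-/-;atf4b-/-;sec31anju221* and at 497 CPM in *srebf2* double mutants, both called lower than *sec31anju221*. *tram2* was 9.86-fold lower in *atf6* double mutants, at 3.41 CPM, against 34.5 CPM in *sec31anju221* larvae. *sec62*, the partner of *sec63*, was at 132 CPM in *sec31anju221* larvae and 142 CPM in WT, and was not called in that comparison. Against *sec31anju221* larvae, *sec62*, *tram1* and *tram2* were all called lower in *xbp1* and *atf6* double mutants and in the labelled libraries. Of the genes of at least 10 CPM, 62.7%, 69.4% and 59.4% were lower there.

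The catalytic subunit of signal peptidase, *sec11a*, was at 571 CPM in *sec31anju221* larvae and 134 CPM in WT, 4.27-fold higher. That is more than for *spcs1*, *spcs2* or *spcs3*. It was lower by 15.0-fold in *xbp1* double mutants, 15.4-fold in *atf6* double mutants, 43.7-fold in the libraries labelled *atf4a-/-;atf4b-/-;sec31anju221* and 2.26-fold in *srebf2* double mutants, and stood at 511 CPM in *srebf1* double mutants (not called).

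Of the 8 genes of SRP and its receptor, 4 were called higher in *sec31anju221* larvae, with a median of 0.96. Of the genes of at least 10 CPM, 17.3% were higher in that comparison. *srp19*, a protein that helps assemble the particle, was furthest up at 281 CPM, against 30.6 CPM in WT, and *srp68* was at 53.5 CPM, against 12.6 CPM. All 8 were called lower in *xbp1* and *atf6* double mutants and in the libraries labelled *atf4a-/-;atf4b-/-;sec31anju221*, with medians of −2.60, −2.62 and −2.72, beside 62.7%, 69.4% and 59.4% of the genes of at least 10 CPM. With TMM factors set by abundant genes 7, 4 and 5 were lower, beside 13.7%, 20.8% and 24.7% of the genes of at least 10 CPM. With library totals 6, 4 and 7 were lower, and the share of all genes was not computed for these counts. In *sec31anju221* larvae all 8 were higher with library totals, where 33.9% of the genes of at least 10 CPM were. *srp19* was at 4.51 CPM in the labelled libraries, 61.0-fold below *sec31anju221* larvae. In *xbp1* double mutants *srprb*, the receptor's beta subunit, was 12.5-fold lower. *srp72* was the 1 gene called higher in *srebf1* double mutants (log2 1.1), and *srp14* and *srp19* the 2 called lower in *srebf2* double mutants (log2 −1.05 and −1.02).

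The 12 genes of oligosaccharyltransferase, which puts N-glycans on entering chains, had 7 called higher in *sec31anju221* larvae and a median of 1.34. Beside these, 17.3% of the genes of at least 10 CPM were higher. *ost4* was at 125 CPM, against 26.4 CPM in WT, and *stt3a*, a catalytic subunit, at 207 CPM, against 61.9 CPM. In *xbp1* double mutants 11 were called lower, in *atf6* double mutants 12 and in the libraries labelled *atf4a-/-;atf4b-/-;sec31anju221* 11, with medians of −2.90, −2.67 and −3.40. In these comparisons 62.7%, 69.4% and 59.4% of the genes of at least 10 CPM were lower. With TMM factors set by abundant genes 9, 8 and 10 were lower, beside 13.7%, 20.8% and 24.7% of the genes of at least 10 CPM. *krtcap2* was 24.9-fold lower in *xbp1* double mutants. *ostc* was 15.0-fold lower in *atf6* double mutants and 47.4-fold lower in the labelled libraries, where *dad1* was 33.2-fold lower. In *srebf1* double mutants *rpn1* was called higher (2.28-fold), and in *srebf2* double mutants *ostc* was called lower (2.23-fold).

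Routes into the membrane that serve other kinds of protein had smaller median differences between *sec31anju221* larvae and WT than the SRP and oligosaccharyltransferase lists. Of 10 genes of the ER membrane protein complex 0 were called higher and 1 lower. The lower one was *emc2*, at 96.4 CPM in *sec31anju221* larvae and 232 CPM in WT. Of 8 genes for tail-anchored proteins 2 were called higher, among them *get3*, the targeting ATPase, at 67.3 CPM in *sec31anju221* larvae and 23.3 CPM in WT. Of 5 genes of the multipass translocon 1 was called higher, *tmco1*, at 1143 CPM in *sec31anju221* larvae and 495 CPM in WT. The list medians were 0.25, 0.15 and 0.67. With library totals 5, 4 and 3 genes were higher and 0 lower, so these counts rest on the scaling, and 17.3% (TMM) or 33.9% (totals) of the genes of at least 10 CPM were higher.

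Against *sec31anju221* larvae, the medians of these lists were most negative in 3 of the further mutants. In *xbp1* double mutants the medians were −1.85 for the ER membrane protein complex, −1.26 for tail-anchor insertion and −1.87 for the multipass translocon. In *atf6* double mutants they were −2.03, −1.88 and −2.59, and in the libraries labelled *atf4a-/-;atf4b-/-;sec31anju221* −1.66, −1.44 and −2.59. *emc8* was 10.2-fold lower in *xbp1* double mutants and 7.96-fold lower in *atf6* double mutants. *tmco1* was 12-fold, 10.6-fold and 42.4-fold lower in the 3 genotypes and 4.36-fold lower in *srebf2* double mutants. *get1*, an insertase subunit, was at 0.804 CPM in the labelled libraries, 58.0-fold below its 52.3 CPM in *sec31anju221* larvae. These list medians depended on scaling. With TMM factors set by abundant genes they were −0.60, −0.02 and −0.63 in *xbp1* double mutants, −0.53, −0.37 and −1.09 in *atf6* double mutants and −0.46, −0.17 and −1.32 in the labelled libraries, and with library totals the tail-anchor median in *xbp1* double mutants had the opposite sign (0.18).

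The sum of the members was then set against the sum of other lists within each library, which again needs no scaling. Relative to oligosaccharyltransferase the members' sum was 106% in *xbp1* double mutants, 218% in *atf6* double mutants, 177% in the libraries labelled *atf4a-/-;atf4b-/-;sec31anju221*, 259% in *srebf1* double mutants, 245% in *srebf2* double mutants, 194% in *sec31anju221* larvae and 202% in WT. So between *sec31anju221* and WT both lists moved by nearly the same factor. In *xbp1* double mutants the members were lower relative to oligosaccharyltransferase than in any other genotype here.

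Relative to SRP and its receptor the members' sum was 163% in *xbp1* double mutants, 297% in *atf6* double mutants, 179% in the labelled libraries, 724% in *srebf1* double mutants, 530% in *srebf2* double mutants, 406% in *sec31anju221* larvae and 363% in WT. Relative to the ER membrane protein complex it was 230%, 506%, 291%, 1414% and 989% in the same 5 genotypes, 826% in *sec31anju221* larvae and 318% in WT. Relative to the secreted hepatocyte proteins it was 0.425% in *xbp1* double mutants, 0.864% in *atf6* double mutants, 0.256% in the labelled libraries, 2.96% in *srebf1* double mutants, 1.23% in *srebf2* double mutants, 2.35% in *sec31anju221* larvae and 0.335% in WT. That ratio leans on *apoa2*, which gave 582599 of the list's 743735 CPM in WT and 151475 of 237573 CPM in *sec31anju221* larvae. Relative to the 14 other hepatocyte genes the members' sum was 6.99% in *xbp1* double mutants, 8.45% in *atf6* double mutants and 2.52% in the labelled libraries. It was 75.9% in *srebf1* double mutants, 21.1% in *srebf2* double mutants, 69.1% in *sec31anju221* larvae and 11.6% in WT. Against this list *xbp1* and *atf6* double mutants were thus below WT, whereas against the secreted list they were above it.

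**Figure D5:**
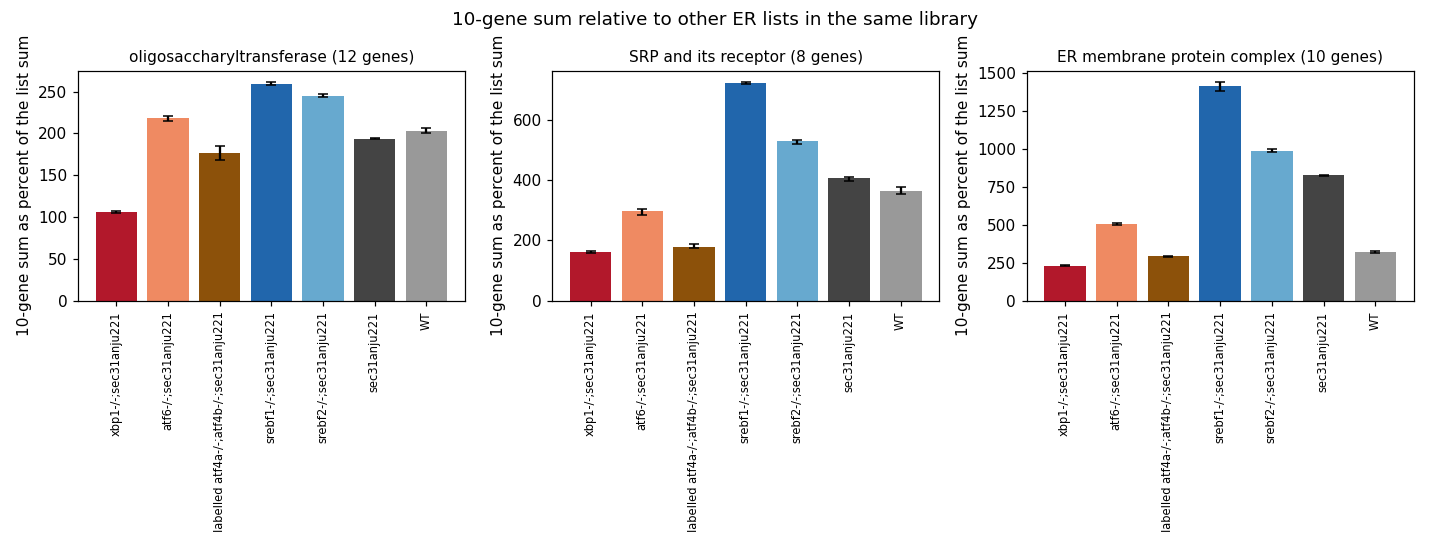
Sum of the 10 genes as percent of the sum of 3 other ER lists in the same library. Bars are means of 3 libraries of 1 sample, error bars their lowest and highest value. Against oligosaccharyltransferase the bar is 106% in *xbp1* double mutants, 194% in *sec31anju221* and 202% in WT, and against the ER membrane protein complex it is 826% in *sec31anju221* and 318% in WT.

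Likeness was measured as Pearson's r between a gene's log2 CPM and the mean centred log2 CPM of the members over the 7 genotypes, for the 5198 genes that averaged 10 CPM or more. The points share libraries and scaling, and 132 of the genes were above 0.95, so r is a description. Each member was also set against the mean of the other members. These r lay between 0.967 for *spcs3* and 0.991 for *sec63*, except *spcs2* at 0.842, and *ssr1* was too low to be given one. With TMM factors set by abundant genes they were 0.908 for *spcs3* and 0.616 for *spcs2*. The 8 genes most like the mean that were not members were *clptm1l* (0.997), *tmed10* (0.997), *slc35b1* (0.995), *selenos* (0.995), *erlec1* (0.994), *srpra* (0.993), *tpd52l2* (0.992) and *smco4* (0.992). Tmed10 is a cargo receptor of early secretory vesicles, Selenos and Erlec1 act in ER-associated degradation, and Srpra is the alpha subunit of the SRP receptor.

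*tmed10* shows the pattern at a level like the members'. It was at 26.6 CPM in *xbp1* double mutants, 55.3 CPM in *atf6* double mutants, 22.3 CPM in the libraries labelled *atf4a-/-;atf4b-/-;sec31anju221*, 520 CPM in *srebf1* double mutants, 347 CPM in *srebf2* double mutants, 299 CPM in *sec31anju221* larvae and 142 CPM in WT. With TMM factors from genes of at least 10 CPM, 5 of the 8 were again among the first 8 of 5140 genes, and only 21 genes were above 0.95. *erlec1* then fell to place 82, and *lman1*, a receptor for glycoprotein cargo, came in at place 3.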

How the data were processed

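The deposited values were whole-number counts per Ensembl gene, 1 file per library, without normalization. Per the study's methods and processing notes, HISAT2 2.1.0 (genome GRCz11) and featureCounts 1.6.0 were the tools of the authors for mapping and counting. The annotation release, the strand setting and the treatment of reads mapping to several places are not given in the sources used here. Paralogs are thus uncertain.

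A scaled sum of 10 counts or more over all libraries kept 30685 genes, and counts were scaled with TMM (edgeR 4.0.16, R 4.3.3). Levels are CPM of the scaled library, and log2 differences are ratios of genotype means with a pseudocount of 0.1 CPM, which understates the difference of low genes. Intervals are 95% Clopper-Pearson intervals on the counts of both genotypes, with counts divided by the variance-to-mean ratio between libraries. Depth was 9608400 to 23095746 counts. Computation was tested on simulated data. Python 3.11.15, NumPy 2.4.6, pandas 2.3.3 and SciPy 1.17.1 were used.

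The libraries of a genotype were counted as 1 sample. Instead of the planned tests over libraries (edgeR quasi-likelihood, DESeq2 1.42.0) being results, they serve as alternatives only. A symbol was found for 29201 of 32520 identifiers. Reference coordinates belong to another assembly and were used only for names and neighbours. Genes named were all members, the 2 furthest from 0 of each pathway list and comparison among genes of at least 10 CPM in 1 of both genotypes, the 8 most alike in pattern, and the disrupted genes. *sec62*, *tram1* in *sec31anju221* against WT, the values of *sec61a1a* in 2 further comparisons, and *lman1* were named outside this rule. So were the cell type genes *apoa2*, *ptf1a*, *mfap4*, *coro1a* and *ptprc*. Members and lists were chosen with earlier results of these data known. Alternatives were other scalings, no filter, other thresholds and pseudocounts, tests over libraries with and without the replicate number as a block, and each library left out. Promoter sequences were not analysed here.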

Additional observations from a re-analysis of the deposited data

How the results depend on the processing

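The direction of the members' median was the same under every alternative run in all 6 comparisons, but its size moved. For *sec31anju221* against WT (1.31) it was 1.24 with DESeq2 size factors, 1.42 with TMM factors from genes of at least 10 CPM, 1.96 with library totals, 1.66 with totals without *apoa2*, 1.14 with a pseudocount of 1 CPM and 1.08 without *ssr1*, a setting added after seeing the data. For *xbp1* double mutants (−3.40) it was −2.16 with the 10 CPM factors, −1.96 with totals, −1.98 with totals without *apoa2* and −3.81 without *ssr1*. For *atf6* double mutants (−2.87) it was −2.79 with DESeq2 size factors, −1.36, −1.42 and −1.47 with the last 3 scalings in that order and −3.02 without *ssr1*. For the libraries labelled *atf4a-/-;atf4b-/-;sec31anju221* (−3.43) these 3 scalings gave −2.15, −2.39 and −2.41. For *srebf1* double mutants (0.71) it was 0.76 with DESeq2 size factors, 0.61 and 0.61 with the 10 CPM factors and totals, 0.67 with totals without *apoa2* and 0.79 without *ssr1*. For *srebf2* double mutants (−0.23) it was −0.050 with DESeq2 size factors, −0.43, −0.66 and −0.64. Called members in *srebf2* double mutants were 2 with either total, *spcs2* and *spcs3*, both lower. At 1.5-fold they were 3, of which *ssr2* was higher (0.72) and the others lower. In *srebf1* double mutants 8 passed 1.5-fold, of which *ssr1* was lower (−0.86) and the others higher. The shares of all genes called under these settings were not computed. Leaving out 1 library gave 6 to 7 called members and medians of 1.28 to 1.33 for *sec31anju221* against WT, 2 to 3 called in *srebf1* double mutants and the main counts elsewhere. Of 240 values of single members under 4 other scalings 12 had the opposite sign, none of them for a called difference. With the libraries taken as replicates, edgeR called 7, 10, 2, 1, 9 and 10 members (*sec31anju221* against WT, then *xbp1*, *srebf1*, *srebf2*, *atf6* and the labelled libraries), and the same counts with the replicate number as a block. DESeq2 called 6, 10, 3, 1, 9 and 10, without *sec63* (0.93) in *sec31anju221* against WT and with *sec61b* (1.03) in *srebf1* double mutants. The labels share replicate numbers but no statement that these pair the samples.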
